A study of Homo sapiens with 6 samples.

Results

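Solute carriers are the largest group of human membrane transporters, and 192 of their genes are described here in ARPE-19 cells, out of 58735 genes in the deposited count table. A gene was taken when it was annotated as protein coding, its symbol began with SLC and a digit, and its level averaged at least 2 CPM (the count divided by the library's total, times 1e6) over all 6 libraries, with SLC7A11 left out. Of 373 genes with such symbols, 192 met that level. The members were thus selected on their level over both groups together, and the level rule itself did not use the difference between the groups. The members, with SLC7A11 left out, were still chosen with earlier results of these data known. ARPE-19 is an established human cell line that arose from retinal pigment epithelium (RPE), the cell layer that feeds the photoreceptors and moves glucose, lactate, ions and water between them and the choroid. The 3 libraries called OE CD51 ICD came from ARPE-19 cells that overexpress CD51-ICD. The 3 libraries called NC came from ARPE-19 cells whose genotype the labels give as wild type. CD51 is integrin alpha V, encoded by ITGAV, and the series title sets the work in microglia-RPE signalling and epithelial-mesenchymal transition in dry macular degeneration. The vector, its promoter, and whether the cells were a clone or a pool are not stated in the sources used here.

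Each solute carrier binds a small molecule or ion on one side of a membrane, changes shape, and releases it on the other, either down a gradient or coupled to the movement of sodium, protons or a second solute. Family numbers follow sequence. SLC2 genes encode facilitative glucose transporters, most SLC25 genes carriers of the inner mitochondrial membrane, and SLC30 and SLC39 genes zinc transporters of opposite direction. Many SLC35A to SLC35E genes encode transporters that bring activated sugars into the Golgi apparatus and endoplasmic reticulum (ER). Others among them carry PAPS, the sulfate donor, or have no settled substrate. In the RPE, glucose enters through GLUT1 (SLC2A1), and lactate crosses through monocarboxylate transporters of the SLC16 family. Some symbols name proteins that bind a carrier and transport nothing, such as SLC9A3R1, an adaptor protein.

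The 192 genes ran from a mean of 2.05 to 1622 CPM by this measure, with a median of 19.4 CPM, so the lowest levels are low rather than moderate. The members just inside the level of 2 were SLC9A9 at 2.05, SLC22A17 at 2.07 and SLC44A3 at 2.58, and the genes just outside it were SLC37A1 at 1.83, SLC30A3 at 1.82 and SLC38A3 at 1.74. SLC22A17 and SLC22A4 reached 2 in the OE CD51 ICD mean and not in the NC mean, and no member did the reverse. All 192 passed the filter on low counts and were tested. Levels within a gene are given below as CPM scaled further by TMM factors, and levels between genes as the authors' deposited FPKM, which divides by gene length. Values with ± are the mean and SD of the 3 libraries of a group, except that a log2 fold change carries its standard error (SE).

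Total counts ran from 14577912 to 15640428 in OE CD51 ICD libraries and from 13616694 to 16934668 in NC libraries. ITGAV, which encodes CD51, was 448 ± 83.5 CPM in OE CD51 ICD and 98.4 ± 12.9 CPM in NC (log2 fold change 2.18 ± 0.11 SE, adjusted p = 1.47e-16). Counts per gene do not separate reads of the introduced CD51-ICD from those of the cells' own ITGAV. Of the 13 RPE markers, 8 were tested, PMEL and RLBP1 were higher (log2 fold change 0.80 ± 0.16 and 0.81 ± 0.27 SE, adjusted p = 1.25e-04 and 0.0134) and MITF was lower (log2 fold change -0.56 ± 0.14 SE, adjusted p = 0.00119). RPE65 and TTR had no count in any library, and KRT8, at 3461 ± 237 CPM in OE CD51 ICD and 3718 ± 189 CPM in NC, did not pass. The summed level of 7 microglial markers was 31.3 to 37.1 CPM in OE CD51 ICD and 3.04 to 4.60 CPM in NC, nearly all of it CSF1R. P2RY12 had no count, and PTPRC, CX3CR1, TMEM119 and AIF1 had none in NC and at most 0.072 CPM on average in OE CD51 ICD. Genes with at least 1 count numbered 20230 to 20610 in OE CD51 ICD libraries and 19540 to 20178 in NC libraries (two-sided exact permutation p = 0.1, the smallest possible here). Summed markers of fibroblasts, endothelium and photoreceptors stayed at or under 2.15 CPM in every library. No label states that the libraries of one group were grown as separate cultures. The p-values then reflect library-to-library spread alone, and that spread may be technical. In such bulk samples, fewer cells of a type and less RNA per cell cannot be told apart.

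In OE CD51 ICD, 56 solute carrier genes were higher and 56 lower, and 80 missed the threshold, by edgeR's quasi-likelihood test with Benjamini-Hochberg adjustment over all 13787 genes tested, at an adjusted p under 0.05. Across all genes tested, 25.2% were higher and 25.8% lower (51.0% in either direction), so the members' shares of 29.2% and 29.2% lay near the background. Their median log2 fold change of -0.0099 was also near that of all genes tested, 0.012. By at least 2-fold, 9 members were higher and 11 lower, where 6.89% and 5.83% of all genes tested were. In 62 members every OE CD51 ICD library lay above every NC library, and in 65 every one lay below, against backgrounds of 28.0% and 29.5%. As a whole the solute carriers were thus called about as often as other genes, and what follows is which of them were, by substrate.

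**Figure D1:**
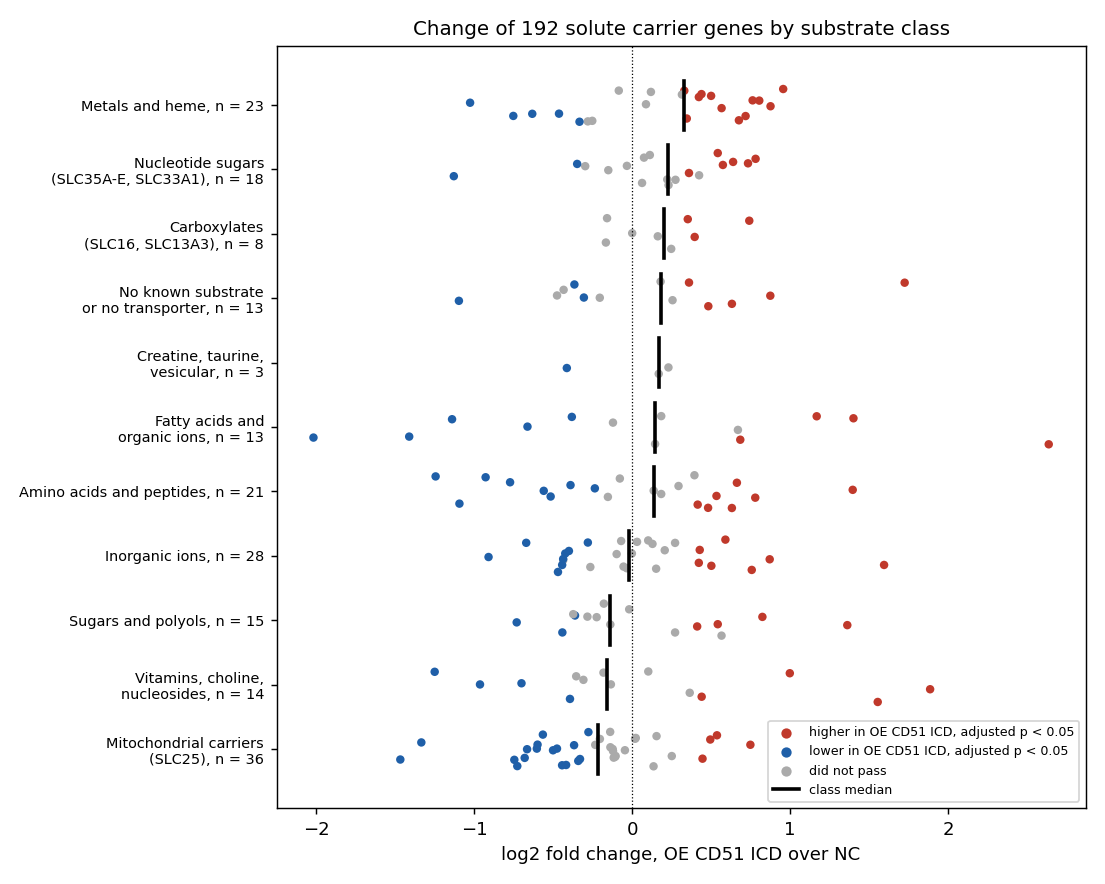
Log2 fold change of OE CD51 ICD over NC (x axis) for each of 192 solute carrier genes, by substrate class (y axis, with the number of genes); points are genes, red where higher, blue where lower and grey where the test was not passed, and black bars are class medians. The metal and heme class has the highest median, 0.33, and the mitochondrial carriers the lowest, -0.22.

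The class medians ran from 0.33 in metal and heme transporters to -0.22 in mitochondrial carriers. With the GC trend removed the metal class had a median of 0.12, transporters of fatty acids and organic ions the highest, 0.38, and mitochondrial carriers the lowest, -0.28. Of 23 metal and heme transporters, 12 were higher and 5 lower. Of 36 mitochondrial carriers, 4 were higher and 17 lower, and of the 156 other members, 52 were higher and 39 lower. These are counts without a test of the class, and of all genes tested 25.2% were higher and 25.8% lower. Transcripts poor in G and C tended to be higher and those rich in them lower, with r = -0.41 between log2 fold change and GC content across the 192 members, which share the same 6 libraries. The same r was -0.23 across all genes tested. With each library's GC trend removed, 24 member calls were lost and 22 were gained. Most of the losses are named below with their values, and most of the gains are not. Amino acid transporters then had 9 rises and 7 falls, inorganic ion transporters 8 and 7, and sugar transporters 5 and 3. Vitamin and nucleoside transporters had 3 and 3, carboxylate transporters 3 and 0, and the class without settled substrate 5 and 3. With limma on log2(FPKM + 1), rises numbered 1 in mitochondrial carriers, 3 in nucleotide sugar transporters and 3 in the class without settled substrate, and falls numbered 5 in amino acid transporters and 3 in transporters of fatty acids and organic ions. DESeq2 gave 2 rises in mitochondrial carriers and 3 in nucleotide sugar transporters.

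**Figure D2:**
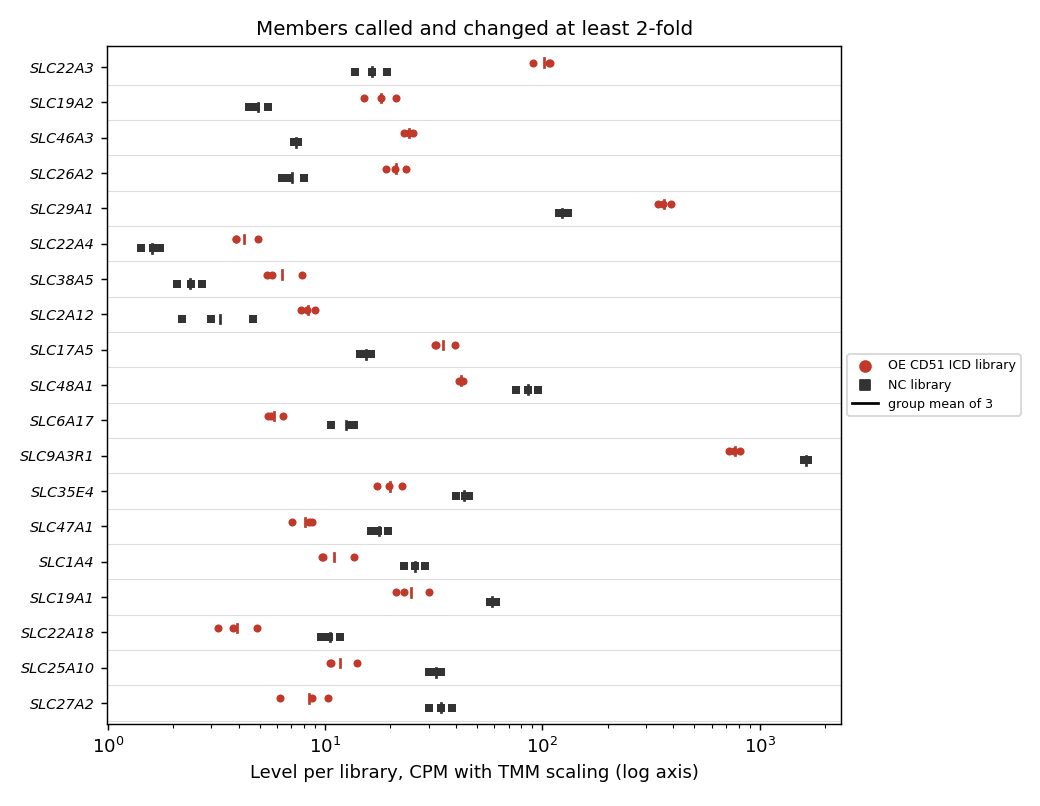
CPM with TMM scaling per library (log axis) for 19 of the 20 members called and changed at least 2-fold, OE CD51 ICD libraries as red circles above NC libraries as dark squares, with the mean of 3 as a bar. Outside SLC22A4, whose row is a description without a test, the groups do not overlap in any row. The rows run from SLC22A3 with 102 CPM in OE CD51 ICD and 16.4 CPM in NC at the top to SLC27A2 with 8.41 CPM and 34.2 CPM at the bottom.

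Transporters of organic ions and lipids held both the largest rise and the largest fall. SLC22A3 (ENSG00000146477, chromosome 6, 160348268 to 160452581, GRCh38) encodes OCT3, a polyspecific transporter of organic cations that takes up monoamines and many drugs. It had 108, 108 and 90.3 CPM in the OE CD51 ICD libraries and 16.4, 19.2 and 13.7 CPM in the NC libraries, a 6.22-fold rise (log2 fold change 2.64 ± 0.11 SE, adjusted p = 5.72e-18). The lowest OE CD51 ICD library was several times the highest NC library. SLC27A2 (ENSG00000140284, chromosome 15, 50182196 to 50236395) encodes an enzyme that activates very long-chain fatty acids to their CoA esters. It had 8.69, 10.3 and 6.22 CPM in the OE CD51 ICD libraries and 30.1, 34.3 and 38.2 CPM in the NC libraries, a 4.05-fold fall (log2 fold change -2.02 ± 0.15 SE, adjusted p = 2.13e-12). All 3 OE CD51 ICD libraries were lower than any NC library.

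Of the 13 genes in this class, 4 were higher, 5 lower and 4 did not pass. Rises made up 30.8% and falls 38.5%, against 25.2% and 25.8% of all genes tested. SLC17A5, which encodes sialin, the lysosomal exporter of sialic acid, had 32.1, 39.8 and 32.4 CPM in the OE CD51 ICD libraries and 14.4, 15.7 and 16.3 CPM in the NC libraries (log2 fold change 1.17 ± 0.12 SE, adjusted p = 2.89e-09). SLC22A4 and SLC22A5 are neighbouring genes on chromosome 5 that encode OCTN1, a transporter of ergothioneine, and OCTN2, the carnitine importer. SLC22A4 had 3.88, 3.90 and 4.94 CPM in the OE CD51 ICD libraries and 1.74, 1.42 and 1.62 CPM in the NC libraries. It reached the level of 2 only in the OE CD51 ICD mean, so this difference is a description without a test. The gene still stands among the 4 rises of the class and the 9 rises of at least 2-fold. The counts of 56 higher members and of higher members with a promoter entry also include it. SLC22A5 had 39.6, 38.1 and 36.1 CPM in the OE CD51 ICD libraries and 22.2, 24.7 and 23.9 CPM in the NC libraries (log2 fold change 0.68 ± 0.11 SE, adjusted p = 4.21e-06). Both share exon sequence on the opposite strand with MIR3936HG, whose log2 fold change was 1.35, and the counting is not stated to use strand. The proton-coupled exporter of organic cations SLC47A1 (MATE1) had 8.69, 7.04 and 8.44 CPM in the OE CD51 ICD libraries and 16.3, 17.6 and 19.5 CPM in the NC libraries (log2 fold change -1.14 ± 0.15 SE, adjusted p = 2.77e-07). SLC22A18, a gene of the imprinted cluster on chromosome 11, had 4.87, 3.76 and 3.22 CPM in the OE CD51 ICD libraries and 9.55, 11.7 and 10.5 CPM in the NC libraries (log2 fold change -1.41 ± 0.19 SE, adjusted p = 3.28e-07). In SLC17A5, SLC22A5, SLC47A1 and SLC22A18 the groups did not overlap. The highest FPKM of the class belonged to SLC10A3, at 31.8 FPKM in OE CD51 ICD and 28.8 FPKM in NC, and SLC27A4, a fatty acid transport protein, at 17.7 FPKM in OE CD51 ICD and 19.3 FPKM in NC, and neither passed. The summed level of the class was 106 ± 1.65 FPKM in OE CD51 ICD and 84.7 ± 0.147 FPKM in NC. After removal of the GC trend, 7 members were higher and 4 lower. The call of SLC22A23 was lost with that correction (adjusted p = 0.176), and leaving out 1 library ended the call of SLC22A23 without NC replicate 2, NC replicate 3, OE CD51 ICD replicate 2 and OE CD51 ICD replicate 3 (adjusted p = 0.137, 0.0835, 0.0591 and 0.118).

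Among the 23 metal and heme transporters, 12 were higher, or 6 with the GC trend removed, and proteins of the secretory pathway stood among them. SLC39 (ZIP) proteins bring zinc into the cytosol from outside the cell or from organelles, and SLC30 (ZnT) proteins carry it out of the cytosol. Of 11 SLC39 members, 5 were higher and 3 lower, and of 6 SLC30 members, 5 were higher and none lower. Across all genes tested, 25.2% were higher and 25.8% lower. SLC39A13 (ENSG00000165915, chromosome 11, 47407132 to 47416501) encodes ZIP13, an intracellular zinc transporter whose loss causes a form of Ehlers-Danlos syndrome. It had 308, 300.4 and 341 CPM in the OE CD51 ICD libraries and 172, 176 and 169 CPM in the NC libraries (log2 fold change 0.88 ± 0.079 SE, adjusted p = 1.42e-10). SLC39A7 (ENSG00000112473, chromosome 6, 33200445 to 33204439) encodes ZIP7, which releases zinc from the ER, and had 249.9, 236 and 255 CPM in the OE CD51 ICD libraries and 151, 143 and 142 CPM in the NC libraries (log2 fold change 0.76 ± 0.079 SE, adjusted p = 2.07e-09). In both genes the lowest OE CD51 ICD library was far above the highest NC library. They were the members of the class with the highest FPKM, SLC39A7 at 85.7 FPKM in OE CD51 ICD and 50.7 FPKM in NC and SLC39A13 at 68.3 FPKM in OE CD51 ICD and 37.3 FPKM in NC.

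SLC30A5, SLC30A6 and SLC30A7 load zinc into the early secretory pathway, where enzymes such as alkaline phosphatase take it up, and the first 2 of them act as a heterodimer. SLC30A7 had 19.6, 25.2 and 21.9 CPM in the OE CD51 ICD libraries and 11.4, 11.8 and 11.2 CPM in the NC libraries (log2 fold change 0.96 ± 0.14 SE, adjusted p = 1.03e-06). SLC30A6 had 14.0, 17.7 and 16.9 CPM in the OE CD51 ICD libraries and 10.8, 11.1 and 10.9 CPM in the NC libraries, and SLC30A5 had 25.4, 25.1 and 21.6 CPM in the OE CD51 ICD libraries and 17.3, 18.6 and 17.3 CPM in the NC libraries. Their log2 fold changes were 0.57 ± 0.15 and 0.44 ± 0.12 SE, with adjusted p = 0.00178 and 0.00377, and none of the 3 genes overlapped between groups. SLC39A14, which encodes ZIP14, an importer of zinc, iron and manganese, had 128, 123 and 120.5 CPM in the OE CD51 ICD libraries and 69.2, 76.1 and 81.0 CPM in the NC libraries (log2 fold change 0.72 ± 0.086 SE, adjusted p = 3.49e-08). SLC39A9 and SLC39A6, further zinc importers, rose by log2 0.35 ± 0.093 and 0.50 ± 0.14 SE, and SLC31A1, the copper importer CTR1, by 0.42 ± 0.10 SE. SLC39A9 shares exon sequence on the opposite strand with ERH, which had 98.7% of its mean count and a log2 fold change of 0.32. SLC30A9 and SLC30A4 also passed, at adjusted p = 0.0292 and 0.0205. SLC30A1, the zinc exporter of the plasma membrane, did not pass, at 19.3 ± 1.10 CPM in OE CD51 ICD and 22.9 ± 2.82 CPM in NC (adjusted p = 0.0973).

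The falls in this class included importers of the plasma membrane. SLC39A1, SLC39A3 and SLC39A4, which encode ZIP1, ZIP3 and ZIP4, had log2 fold changes of -0.75 ± 0.24, -0.33 ± 0.10 and -0.46 ± 0.12 SE. The magnesium transporter family split, with SLC41A2 at 0.68 ± 0.15 SE and SLC41A3 at -0.63 ± 0.094 SE, both past the test. SLC48A1 (ENSG00000211584, chromosome 12, 47753916 to 47782753), which encodes HRG1, the heme transporter of endosomes and lysosomes, had 41.2, 42.2 and 42.9 CPM in the OE CD51 ICD libraries and 75.8, 86.3 and 95.2 CPM in the NC libraries (log2 fold change -1.03 ± 0.10 SE, adjusted p = 2.71e-10). The OE CD51 ICD libraries lay close together, all far below the lowest NC library. SLC48A1 shares exon sequence on the opposite strand with HDAC7 and RAPGEF3, whose log2 fold changes were -0.082 and -1.07, SLC39A7 with RXRB, at -0.10, and SLC39A1 with CREB3L4, at -0.36 and 252% of the count of SLC39A1. The summed FPKM of the class was 265 ± 6.35 FPKM in OE CD51 ICD and 198 ± 2.92 FPKM in NC, and the share of SLC39A7 in it was 32.3% in OE CD51 ICD and 25.6% in NC.

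Transcripts of this class were poor in G and C, with a median GC content of 44.0% against 51.1% over all members. Removing the GC trend left 6 members higher and 6 lower, and the calls lost were those of SLC30A4, SLC30A5, SLC30A6, SLC30A9, SLC39A3, SLC39A6 and SLC39A9 (adjusted p = 0.103, 0.152, 0.0557, 0.591, 0.119, 0.0833 and 0.153). Of the SLC30 genes only SLC30A7 was higher then, and SLC30A1 was lower (log2 -0.50, adjusted p = 4.09e-04). SLC39A13, SLC39A7, SLC39A14, SLC30A7, SLC41A2 and SLC31A1 were the 6 higher then, with SLC39A13 at log2 1.11 and SLC30A7 at 0.71. Leaving out 1 library ended the call of SLC30A4 without NC replicate 2, NC replicate 3 and OE CD51 ICD replicate 2 (adjusted p = 0.0744, 0.0977 and 0.136), of SLC30A9 without NC replicate 2, NC replicate 3 and OE CD51 ICD replicate 2 (adjusted p = 0.0809, 0.0815 and 0.180), of SLC39A3 without NC replicate 2 (adjusted p = 0.0563) and of SLC39A6 without OE CD51 ICD replicate 2 (adjusted p = 0.0602).

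**Figure D3:**
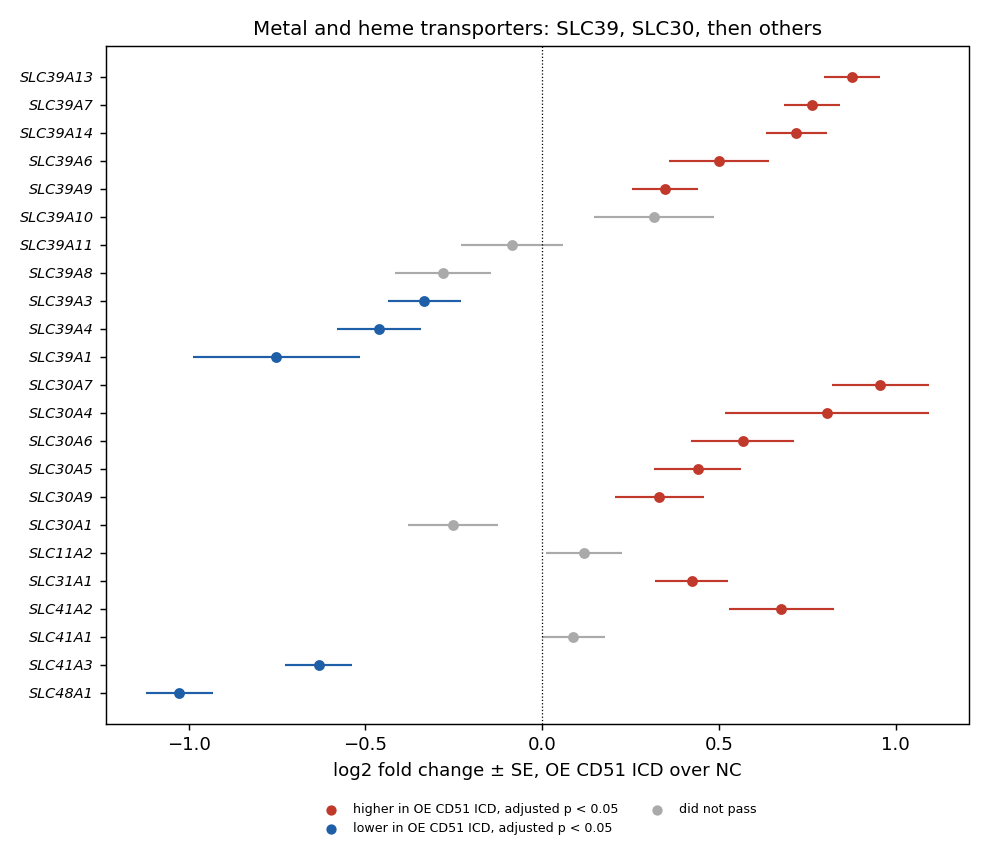
Log2 fold change of OE CD51 ICD over NC with its SE (x axis) for the 23 metal and heme transporters, SLC39 genes first, then SLC30 genes, then the others (y axis); red is higher, blue lower and grey not past the test. Of the SLC30 genes, 5 lie to the right and SLC30A1 to the left of 0, and SLC48A1 is the lowest at -1.03.

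The promoters of SLC39A7 and SLC30A5, zinc transporters that were higher together, are shown because each held the core ACGTG of the hypoxia response element, which was searched on both strands. They are from RefSeq on GRCh38.p14 and run from 250 bases before to 50 after the transcription start, 5′ to 3′ on the gene's strand, with capitals marking ACGTG or its reverse complement CACGT. The SLC39A7 window lies at chr6:33200617-33200916, plus strand, and the SLC30A5 window at chr5:69093764-69094063, plus strand.
SLC39A7: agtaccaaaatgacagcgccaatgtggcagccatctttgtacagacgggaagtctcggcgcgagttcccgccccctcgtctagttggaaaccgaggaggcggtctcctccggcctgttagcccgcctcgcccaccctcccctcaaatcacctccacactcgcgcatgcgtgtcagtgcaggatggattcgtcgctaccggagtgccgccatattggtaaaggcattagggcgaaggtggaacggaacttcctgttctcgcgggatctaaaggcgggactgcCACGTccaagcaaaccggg
SLC30A5: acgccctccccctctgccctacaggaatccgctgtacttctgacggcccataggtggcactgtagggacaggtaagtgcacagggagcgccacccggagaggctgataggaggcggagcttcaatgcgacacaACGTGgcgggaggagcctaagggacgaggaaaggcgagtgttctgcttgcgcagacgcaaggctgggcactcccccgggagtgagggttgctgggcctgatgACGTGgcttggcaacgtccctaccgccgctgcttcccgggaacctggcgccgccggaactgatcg
The letters ACGTG stood in 38.1% of 21 promoters of the metal class and in 25.3% of 162 promoters of all members that had an entry, against 23.7% of 15843 protein-coding promoters. Among members higher in OE CD51 ICD, 34.8% of 46 held it, and among members lower 24.5% of 49. With the 250 bases before the start alone, the metal class share was 14.3% and that of all promoters 20.8%. In that shorter window the share was 28.3% among members higher and 24.5% among members lower. A match describes these letters in this window and is not a site.

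Transporters of nucleotide sugars and their relatives supply the Golgi apparatus and ER with the building blocks of glycans and sulfated matrix. Of 18, 6 were higher, 2 lower and 10 did not pass. Rises made up 33.3% and falls 11.1%, against 25.2% and 25.8% of all genes tested. SLC35D1, which carries UDP-glucuronic acid and UDP-N-acetylgalactosamine for chondroitin sulfate, had 15.9, 17.6 and 15.2 CPM in the OE CD51 ICD libraries and 9.60, 9.70 and 10.003 CPM in the NC libraries (log2 fold change 0.73 ± 0.15 SE, adjusted p = 1.03e-04). SLC35C1, the GDP-fucose transporter, had 107, 107 and 116 CPM in the OE CD51 ICD libraries and 81.5, 70.7 and 69.4 CPM in the NC libraries (log2 fold change 0.57 ± 0.088 SE, adjusted p = 2.49e-06). SLC35E1, which has no settled substrate, had 124, 119.8 and 128 CPM in the OE CD51 ICD libraries and 69.8, 66.7 and 80.2 CPM in the NC libraries (log2 fold change 0.78 ± 0.088 SE, adjusted p = 1.06e-08). In these 3 genes all OE CD51 ICD libraries were above all NC libraries. The UDP-N-acetylglucosamine transporter SLC35A3, the PAPS transporter SLC35B3 and SLC35B4, which carries UDP-xylose, also passed, at adjusted p = 0.0158, 0.0163 and 0.0402.

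SLC35B2, the other transporter of PAPS, the sulfate donor, had the highest FPKM of the class, 66.8 FPKM in OE CD51 ICD and 74.4 FPKM in NC, and did not pass (adjusted p = 0.117). SLC35A4, the next by FPKM, was 93.5 ± 7.05 CPM in OE CD51 ICD and 119 ± 3.60 CPM in NC and fell by 0.35 on the log2 scale (adjusted p = 9.63e-04). The orphan SLC35E4 had 19.7, 17.3 and 22.7 CPM in the OE CD51 ICD libraries and 45.9, 44.2 and 40.2 CPM in the NC libraries (log2 fold change -1.13 ± 0.12 SE, adjusted p = 1.81e-09), and its groups did not overlap. Reads of SLC35E2A and SLC35E2B, near-identical copies, may have been split between them, and neither passed. Removal of the GC trend left 4 members higher and 3 lower, and the calls lost were those of SLC35A3, SLC35B3 and SLC35B4 (adjusted p = 0.1001, 0.168 and 0.382). Leaving out 1 library ended the call of SLC35A3 without OE CD51 ICD replicate 2 (adjusted p = 0.0593), of SLC35B3 without NC replicate 3 and OE CD51 ICD replicate 1 (adjusted p = 0.0588 and 0.108) and of SLC35B4 without NC replicate 1, NC replicate 2, OE CD51 ICD replicate 1 and OE CD51 ICD replicate 2 (adjusted p = 0.113, 0.224, 0.0677 and 0.142).

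Sugar transporters showed a rise in their most abundant member. SLC2A1 (ENSG00000117394, chromosome 1, 42925375 to 42959176), which encodes GLUT1, the glucose transporter of the RPE and the blood-retina barrier, had 1646, 1504 and 1673 CPM in the OE CD51 ICD libraries and 856, 875 and 992 CPM in the NC libraries (log2 fold change 0.82 ± 0.081 SE, adjusted p = 6.93e-10). Every OE CD51 ICD library was far above the highest NC library. SLC2A1 made up 85.4% in OE CD51 ICD and 76.0% in NC of the summed FPKM of the 15 sugar and polyol transporters, and that sum was 394 ± 27.4 FPKM in OE CD51 ICD and 251 ± 15.4 FPKM in NC. SLC2A12 (GLUT12) had 9.02, 7.72 and 8.30 CPM in the OE CD51 ICD libraries and 2.20, 4.67 and 2.97 CPM in the NC libraries (log2 fold change 1.36 ± 0.22 SE, adjusted p = 6.93e-06), and SLC2A3 (GLUT3) had 22.3, 24.1 and 23.9 CPM in the OE CD51 ICD libraries and 15.0, 14.6 and 18.6 CPM in the NC libraries (log2 fold change 0.54 ± 0.13 SE, adjusted p = 8.54e-04). Of the 7 SLC2 members, 3 were higher and none lower, where 25.2% and 25.8% of all genes tested were. SLC2A12 shares exon sequence with TBPL1 on the opposite strand, whose log2 fold change was 0.44.

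The next sugar transporter by FPKM, SLC2A6, at 15.3 FPKM in OE CD51 ICD and 16.8 FPKM in NC, did not pass (adjusted p = 0.289). SLC37A3 was higher, and SLC37A4, SLC45A1 and SLC45A4 were lower. SLC37A4, which carries glucose 6-phosphate into the ER, was 35.6 ± 3.24 CPM in OE CD51 ICD and 45.8 ± 1.30 CPM in NC (adjusted p = 0.00371), and SLC45A1 had 3.75, 3.90 and 3.43 CPM in the OE CD51 ICD libraries and 6.71, 5.31 and 6.35 CPM in the NC libraries. The call of SLC45A4 was lost with the GC trend removed (adjusted p = 0.0882). Leaving out 1 library ended the call of SLC37A3 without NC replicate 1 (adjusted p = 0.0959) and of SLC45A4 without NC replicate 1, NC replicate 3 and OE CD51 ICD replicate 2 (adjusted p = 0.0780, 0.0590 and 0.0823).

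Monocarboxylate transporters move lactate, pyruvate and related acids with protons. SLC16A3, which encodes MCT4, the lactate exporter of glycolytic cells, had the highest FPKM of the 8 carboxylate transporters and had 1515, 1406 and 1679 CPM in the OE CD51 ICD libraries and 1706, 1696 and 1733 CPM in the NC libraries. Its groups did not overlap, with OE CD51 ICD lower, and it did not pass (adjusted p = 0.0960). SLC16A1, which encodes MCT1, had 80.7, 91.1 and 69.96 CPM in the OE CD51 ICD libraries and 61.0, 69.4 and 53.5 CPM in the NC libraries (log2 fold change 0.40 ± 0.10 SE, adjusted p = 0.00185). The FPKM ratio of SLC16A1 to SLC16A3 was 0.0902, 0.110 and 0.0705 in the OE CD51 ICD libraries and 0.0605, 0.0693 and 0.0522 in the NC libraries. SLC16A4, a further member of the family, was 10.7 ± 2.31 CPM in OE CD51 ICD and 6.40 ± 1.06 CPM in NC (log2 fold change 0.74 ± 0.18 SE, adjusted p = 0.00125).

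The class had 3 rises and no fall past the test, where 25.2% of all genes tested were higher and 25.8% lower. With the GC trend removed, SLC16A1 lost its call (adjusted p = 0.0868). With limma on log2(FPKM + 1) the class had 1 rise, and SLC16A1 and SLC16A4 did not pass (adjusted p = 0.0863 and 0.0517). MCT1 and MCT4 reach the membrane with basigin, encoded by BSG, which was 1483 ± 147 CPM in OE CD51 ICD and 1829 ± 36.7 CPM in NC (log2 fold change -0.30 ± 0.080 SE, adjusted p = 0.00233). Embigin, a related chaperone of monocarboxylate transporters encoded by EMB, was 30.7 ± 2.16 CPM in OE CD51 ICD and 16.6 ± 1.9995 CPM in NC (log2 fold change 0.88 ± 0.12 SE, adjusted p = 5.33e-07). BSG was thus lower and EMB higher in the libraries in which SLC16A1 was higher.

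Of the 21 amino acid and peptide transporters, 7 were higher and 8 lower. Rises made up 33.3% and falls 38.1%, against 25.2% and 25.8% of all genes tested. SLC7A5 (ENSG00000103257, chromosome 16, 87830023 to 87869488) encodes LAT1, the exchanger of large neutral amino acids, which is held at the membrane by the heavy chain 4F2hc, encoded by SLC3A2. SLC7A5 had 954, 851 and 899 CPM in the OE CD51 ICD libraries and 1256, 1176 and 1112 CPM in the NC libraries (log2 fold change -0.39 ± 0.079 SE, adjusted p = 1.24e-04), and SLC3A2 had 282, 261 and 286 CPM in the OE CD51 ICD libraries and 433, 397 and 393 CPM in the NC libraries (log2 fold change -0.56 ± 0.078 SE, adjusted p = 6.08e-07). Both were lower in all 3 OE CD51 ICD libraries than in any NC library, and they had the highest FPKM of the class. Their FPKM ratio was 3.69, 3.55 and 3.43 in the OE CD51 ICD libraries and 3.17, 3.23 and 3.09 in the NC libraries. SLC7A1 (ENSG00000139514, chromosome 13, 29509410 to 29595688), which encodes CAT1, the importer of arginine and lysine, went the other way and had 327, 314 and 324 CPM in the OE CD51 ICD libraries and 204, 187 and 232 CPM in the NC libraries (log2 fold change 0.63 ± 0.083 SE, adjusted p = 2.00e-07).

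SLC7A6, which encodes y+LAT2, another light chain that pairs with 4F2hc, was 34.0 ± 1.71 CPM in OE CD51 ICD and 25.5 ± 1.01 CPM in NC and was higher (log2 fold change 0.42 ± 0.11 SE, adjusted p = 0.00192) while SLC3A2 was lower. SLC38A5, a sodium-coupled importer of glutamine and glycine (SNAT5), had 5.40, 7.79 and 5.72 CPM in the OE CD51 ICD libraries and 2.08, 2.41 and 2.70 CPM in the NC libraries (log2 fold change 1.40 ± 0.23 SE, adjusted p = 7.86e-06). SLC38A1, a glutamine importer of the same family (SNAT1), had 85.8, 95.0 and 78.3 CPM in the OE CD51 ICD libraries and 66.3, 51.5 and 60.8 CPM in the NC libraries (log2 fold change 0.53 ± 0.10 SE, adjusted p = 3.85e-05). In both, every OE CD51 ICD library was above every NC library. SLC38A9, the lysosomal arginine sensor upstream of mTORC1, was 6.23 ± 0.945 CPM in OE CD51 ICD and 3.65 ± 0.877 CPM in NC (adjusted p = 0.00355). SLC15A4, a peptide and histidine transporter of endolysosomes, was 64.1 ± 2.70 CPM in OE CD51 ICD and 45.9 ± 5.39 CPM in NC (adjusted p = 1.42e-04).

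Among the falls, SLC1A4, which encodes ASCT1, an exchanger of alanine, serine and cysteine, had 9.74, 9.64 and 13.5 CPM in the OE CD51 ICD libraries and 25.9, 23.0 and 28.9 CPM in the NC libraries (log2 fold change -1.24 ± 0.15 SE, adjusted p = 2.48e-08). SLC6A17, a transporter of neutral amino acids known from synaptic vesicles, had 5.46, 6.42 and 5.65 CPM in the OE CD51 ICD libraries and 13.2, 10.6 and 13.6 CPM in the NC libraries (log2 fold change -1.09 ± 0.17 SE, adjusted p = 3.29e-06). The groups did not overlap in either. SLC1A5, which encodes the glutamine transporter ASCT2, was 15.0 ± 2.55 CPM in OE CD51 ICD and 21.5 ± 3.20 CPM in NC (adjusted p = 0.00352), and SLC7A8, which encodes LAT2, was 7.79 ± 1.17 CPM in OE CD51 ICD and 14.9 ± 1.45 CPM in NC (adjusted p = 1.69e-05). The summed FPKM of the class was 353 ± 18.5 FPKM in OE CD51 ICD and 424 ± 16.5 FPKM in NC.

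SLC38A10 was the one member whose called direction turned round: its log2 fold change was -0.24 (adjusted p = 0.0157), and 0.015 with the GC trend removed (adjusted p = 0.849). Its transcript has a GC content of 64.3%. Leaving out 1 library ended the call of SLC38A10 without NC replicate 1, OE CD51 ICD replicate 1 and OE CD51 ICD replicate 2 (adjusted p = 0.0554, 0.0703 and 0.109).

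SLC7A1 and SLC3A2 moved in opposite directions, and their promoters are shown because both held TGATGNAA, the composite element read by the amino acid response factor ATF4, searched on both strands. The windows are from RefSeq on GRCh38.p14, 5′ to 3′ on the gene's strand, with capitals marking the element or its reverse complement. The SLC7A1 window lies at chr13:29595639-29595938, minus strand, and the SLC3A2 window at chr11:62881449-62881748, plus strand.
SLC7A1: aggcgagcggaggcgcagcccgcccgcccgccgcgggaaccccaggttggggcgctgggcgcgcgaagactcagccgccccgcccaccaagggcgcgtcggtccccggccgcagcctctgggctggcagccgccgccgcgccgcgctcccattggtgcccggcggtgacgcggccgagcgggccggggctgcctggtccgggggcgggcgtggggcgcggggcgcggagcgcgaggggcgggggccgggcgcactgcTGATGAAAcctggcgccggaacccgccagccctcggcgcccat
SLC3A2: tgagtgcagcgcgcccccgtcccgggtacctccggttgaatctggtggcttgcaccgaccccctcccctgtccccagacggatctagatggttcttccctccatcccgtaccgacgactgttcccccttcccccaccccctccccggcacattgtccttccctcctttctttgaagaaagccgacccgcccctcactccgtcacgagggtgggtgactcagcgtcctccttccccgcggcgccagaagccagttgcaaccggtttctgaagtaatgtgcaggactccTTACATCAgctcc
In both windows the match lay in the 50 bases after the start. The element stood in 3 of 20 amino acid transporter promoters, the third being that of SLC38A1, which was higher, as SLC7A1 was. It stood in 4.32% of all member promoters and in 2.53% of all protein-coding promoters. With the 250 bases before the start alone, it stood in 0 of the 20, in 1.85% of member promoters and in 2.21% of all. TGANTCA, the AP-1 motif, stood in 6.79% of member promoters and 5.75% of all, and in 5 of the 20 amino acid transporter promoters. CAGACA, the SMAD box, stood in 8.64% of member promoters and 14.5% of all. A window without a match says only that these letters are not in it.

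Among the 3 transporters of creatine, taurine and vesicular amines, SLC6A8, the creatine transporter, had the highest FPKM and had 127, 113 and 137 CPM in the OE CD51 ICD libraries and 159, 155 and 189 CPM in the NC libraries (log2 fold change -0.41 ± 0.090 SE, adjusted p = 3.07e-04). The taurine transporter SLC6A6 was 47.0 ± 4.76 CPM in OE CD51 ICD and 41.9 ± 1.63 CPM in NC and did not pass (adjusted p = 0.166), and SLC18B1, a vesicular polyamine transporter, did not pass either (adjusted p = 0.303).

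Vitamin and nucleoside transporters showed opposite changes between close relatives. SLC19A1 encodes the reduced folate carrier and SLC19A2 a thiamine importer of the same family. SLC19A2 (ENSG00000117479, chromosome 1, 169463909 to 169486003) had 18.2, 21.1 and 15.1 CPM in the OE CD51 ICD libraries and 4.80, 5.45 and 4.46 CPM in the NC libraries (log2 fold change 1.89 ± 0.17 SE, adjusted p = 1.20e-10). SLC19A1 (ENSG00000173638, chromosome 21, 45493572 to 45544411) had 23.0, 21.1 and 30.2 CPM in the OE CD51 ICD libraries and 57.1, 58.5 and 61.0 CPM in the NC libraries (log2 fold change -1.25 ± 0.11 SE, adjusted p = 1.58e-10). The groups did not overlap in either gene, and the FPKM ratio of SLC19A2 to SLC19A1 was 1.78, 2.26 and 1.13 in the OE CD51 ICD libraries and 0.190, 0.210 and 0.165 in the NC libraries. SLC19A1 shares exon sequence on the opposite strand with COL18A1, whose mean count was 1085% of its own and whose log2 fold change was 0.78, opposite in sign to SLC19A1.

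SLC29A1 (ENSG00000112759, chromosome 6, 44219505 to 44234151), which encodes the equilibrative nucleoside transporter ENT1, had 358, 340.4 and 390.3 CPM in the OE CD51 ICD libraries and 121, 119 and 131 CPM in the NC libraries (log2 fold change 1.56 ± 0.082 SE, adjusted p = 7.73e-16). It had the highest FPKM of the 14 genes in this class, at 81.3 FPKM in OE CD51 ICD and 27.8 FPKM in NC, and every OE CD51 ICD library was far above any NC library. Its relative SLC29A2 (ENT2) fell, at 2.96 ± 0.402 CPM in OE CD51 ICD and 4.82 ± 0.480 CPM in NC (adjusted p = 0.0106). The choline transporter-like genes also split: SLC44A1 was 37.5 ± 2.39 CPM in OE CD51 ICD and 27.6 ± 1.39 CPM in NC (log2 fold change 0.44 ± 0.11 SE, adjusted p = 9.43e-04), SLC44A5 was 8.34 ± 2.20 CPM in OE CD51 ICD and 4.18 ± 0.391 CPM in NC (log2 fold change 0.998 ± 0.21 SE, adjusted p = 1.62e-04), and SLC44A2, the next by FPKM, had 170.4, 167 and 175 CPM in the OE CD51 ICD libraries and 224, 219 and 229.9 CPM in the NC libraries (log2 fold change -0.39 ± 0.077 SE, adjusted p = 8.99e-05). SLC5A6, the sodium-coupled importer of biotin and pantothenate, had 21.6, 17.2 and 23.2 CPM in the OE CD51 ICD libraries and 38.6, 40.9 and 41.4 CPM in the NC libraries (log2 fold change -0.96 ± 0.12 SE, adjusted p = 4.67e-08). In all, 4 genes of the class were higher and 4 lower. Each was 28.6% of the class, near the 25.2% and 25.8% of all genes tested. The calls of SLC29A2 and SLC44A1 were lost with the GC trend removed (adjusted p = 0.0648 and 0.0980).

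Transporters of inorganic ions set cell volume, pH and phosphate. Of 28, 7 were higher, 8 lower and 13 did not pass, and the class median was -0.018. The shares of 25% and 28.6% lay near the 25.2% and 25.8% of all genes tested. SLC26A2 (ENSG00000155850, chromosome 5, 149960737 to 149993455), the sulfate importer that feeds sulfation of cartilage proteoglycans, had 19.1, 23.6 and 21.0 CPM in the OE CD51 ICD libraries and 6.36, 7.9996 and 6.76 CPM in the NC libraries (log2 fold change 1.60 ± 0.15 SE, adjusted p = 4.22e-10). Its relative SLC26A1, another sulfate transporter, had 6.39, 5.19 and 6.08 CPM in the OE CD51 ICD libraries and 12.3, 9.91 and 10.9 CPM in the NC libraries (log2 fold change -0.91 ± 0.17 SE, adjusted p = 5.53e-05). The groups did not overlap in either gene. SLC20A1 and SLC20A2, the phosphate importers PiT1 and PiT2, also went opposite ways, by log2 0.42 ± 0.095 and -0.40 ± 0.10 SE, both past the test. SLC20A2 shares exon sequence on the opposite strand with SMIM19, which had 25.3% of its mean count and a log2 fold change of -0.50.

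Among the pH regulators, SLC4A7, a sodium bicarbonate cotransporter, had 23.8, 32.1 and 22.9 CPM in the OE CD51 ICD libraries and 18.3, 11.6 and 12.9 CPM in the NC libraries (log2 fold change 0.87 ± 0.15 SE, adjusted p = 2.22e-05). SLC9A7, a sodium-proton exchanger of the Golgi network, had 62.9, 67.5 and 60.3 CPM in the OE CD51 ICD libraries and 39.1, 37.2 and 36.4 CPM in the NC libraries (log2 fold change 0.76 ± 0.095 SE, adjusted p = 8.64e-08). In both, every OE CD51 ICD library was above every NC library. The anion exchanger SLC4A2 (AE2) had the highest FPKM of the class, 92.0 FPKM in OE CD51 ICD and 97.0 FPKM in NC, and the potassium-chloride cotransporter SLC12A4 (KCC1) the next, 23.1 FPKM in OE CD51 ICD and 23.8 FPKM in NC. Neither passed. SLC12A7 (KCC4) had 29.1, 24.3 and 25.8 CPM in the OE CD51 ICD libraries and 42.2, 42.1 and 42.0 CPM in the NC libraries (log2 fold change -0.67 ± 0.11 SE, adjusted p = 4.39e-06). SLC12A2 (NKCC1), the sodium-potassium-chloride importer, was 10.1 ± 0.782 CPM in OE CD51 ICD and 8.36 ± 2.14 CPM in NC and did not pass (adjusted p = 0.205).

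The rises also included SLC24A1, and the other falls were SLC4A3, SLC4A8, SLC9A5, SLC9B2 and SLC12A9. Calls lost when the GC trend was removed included those of SLC4A3 and SLC9A5 (adjusted p = 0.784 and 0.170). Leaving out 1 library ended, among others, the call of SLC24A1 without NC replicate 2 and OE CD51 ICD replicate 2 (adjusted p = 0.0545 and 0.0513), of SLC4A3 without OE CD51 ICD replicate 2 (adjusted p = 0.0581), of SLC9A5 without NC replicate 2, NC replicate 3, OE CD51 ICD replicate 1 and OE CD51 ICD replicate 2 (adjusted p = 0.122, 0.0791, 0.288 and 0.0571) and of SLC9B2 without NC replicate 2 and OE CD51 ICD replicate 1 (adjusted p = 0.0577 and 0.0598).

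Most SLC25 proteins exchange metabolites, nucleotides and cofactors across the inner mitochondrial membrane. The 36 members were taken by family number, and 17 were lower in OE CD51 ICD, 4 higher and 15 did not pass. Falls made up 47.2% and rises 11.1%, against 25.8% and 25.2% of all genes tested. In 20 of the 36 every OE CD51 ICD library lay below every NC library, and in 4 above. This held for 29.5% and 28.0% of all genes tested. Their summed FPKM was 957 ± 98.3 FPKM in OE CD51 ICD and 1208 ± 13.8 FPKM in NC. With the GC trend removed, 3 were higher and 19 lower. The share of counts on mitochondrially encoded genes was 3.60% to 4.07% in OE CD51 ICD libraries and 3.86% to 5.07% in NC libraries (two-sided exact permutation p = 0.5, where the smallest possible is 0.1), and its part in these falls was not tested.

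The largest fall in the family was in SLC25A10 (ENSG00000183048, chromosome 17, 81712236 to 81721016), the dicarboxylate carrier, which exchanges malate and succinate for phosphate. It had 10.6, 10.5 and 14.0 CPM in the OE CD51 ICD libraries and 32.7, 34.3 and 30.1 CPM in the NC libraries (log2 fold change -1.47 ± 0.13 SE, adjusted p = 1.27e-10). Its groups did not overlap. SLC25A11, the oxoglutarate carrier of the malate-aspartate shuttle, had 61.0, 61.8 and 68.1 CPM in the OE CD51 ICD libraries and 109.6, 105 and 101 CPM in the NC libraries (log2 fold change -0.73 ± 0.086 SE, adjusted p = 3.19e-08). It shares exon sequence with RNF167 on the opposite strand, whose log2 fold change was -0.38.

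SLC25A39, the mitochondrial glutathione importer, had 139, 141 and 169 CPM in the OE CD51 ICD libraries and 237, 242 and 239 CPM in the NC libraries (log2 fold change -0.68 ± 0.084 SE, adjusted p = 6.68e-08). Its relative SLC25A40 was 4.88 ± 0.511 CPM in OE CD51 ICD and 8.12 ± 2.80 CPM in NC (adjusted p = 0.00405), with NC replicate 1 well above the other NC libraries. On the opposite strand it shares exon sequence with DBF4, which had 53.6% of its mean count and a log2 fold change of -0.67. The most abundant carriers were the adenine nucleotide translocases, which exchange ADP for ATP. SLC25A6 had 803, 757 and 947 CPM in the OE CD51 ICD libraries and 1048, 1032 and 1070.4 CPM in the NC libraries (log2 fold change -0.33 ± 0.083 SE, adjusted p = 0.00135), and SLC25A5 had 280.2, 271 and 334 CPM in the OE CD51 ICD libraries and 362, 350.4 and 359 CPM in the NC libraries (log2 fold change -0.28 ± 0.083 SE, adjusted p = 0.00609). Both were lower in every OE CD51 ICD library, with OE CD51 ICD replicate 3 nearest to the NC libraries. Their isoform SLC25A4 did not pass (adjusted p = 0.372), nor did the phosphate carrier SLC25A3, at 69.3 FPKM in OE CD51 ICD and 76.6 FPKM in NC (adjusted p = 0.137).

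The other falls included SLC25A1, the citrate carrier that supplies acetyl units for lipid synthesis, at log2 -0.37 ± 0.081 SE, SLC25A22, a glutamate carrier, at -0.60 ± 0.10 SE, SLC25A26, which imports S-adenosylmethionine, at -0.42 ± 0.12 SE, and SLC25A28, the iron carrier mitoferrin-2, at -0.57 ± 0.14 SE. SLC25A38, which brings in glycine for heme synthesis, fell by 0.34 on the log2 scale, and SLC25A42, which brings in coenzyme A, fell by 0.48. SLC25A33 and SLC25A36 both carry pyrimidine nucleotides and moved in opposite directions. SLC25A33 had 5.13, 5.81 and 6.29 CPM in the OE CD51 ICD libraries and 9.14, 8.35 and 8.65 CPM in the NC libraries (log2 fold change -0.60 ± 0.18 SE, adjusted p = 0.00503), and SLC25A36 had 19.2, 20.8 and 15.2 CPM in the OE CD51 ICD libraries and 12.1, 9.63 and 11.1 CPM in the NC libraries (log2 fold change 0.75 ± 0.15 SE, adjusted p = 1.20e-04). SLC25A16, SLC25A43 and SLC25A45 were the other 3 rises.

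Calls lost on removal of the GC trend were those of SLC25A1, SLC25A16, SLC25A42 and SLC25A6 (adjusted p = 0.154, 0.0814, 0.0525 and 0.296). Leaving out 1 library ended the call of SLC25A15 without OE CD51 ICD replicate 1 (adjusted p = 0.159), of SLC25A40 without NC replicate 1 (adjusted p = 0.114), of SLC25A43 without NC replicate 1, NC replicate 3, OE CD51 ICD replicate 1 and OE CD51 ICD replicate 2 (adjusted p = 0.0966, 0.0533, 0.0731 and 0.107), of SLC25A45 without NC replicate 1, NC replicate 2, NC replicate 3, OE CD51 ICD replicate 2 and OE CD51 ICD replicate 3 (adjusted p = 0.0617, 0.0831, 0.123, 0.0883 and 0.131) and of SLC25A5 without OE CD51 ICD replicate 1 (adjusted p = 0.0793). SLC25A12 and SLC25A13, the aspartate-glutamate carriers, and SLC25A20, the carnitine-acylcarnitine carrier, did not pass (adjusted p = 0.821, 0.228 and 0.492).

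**Figure D4:**
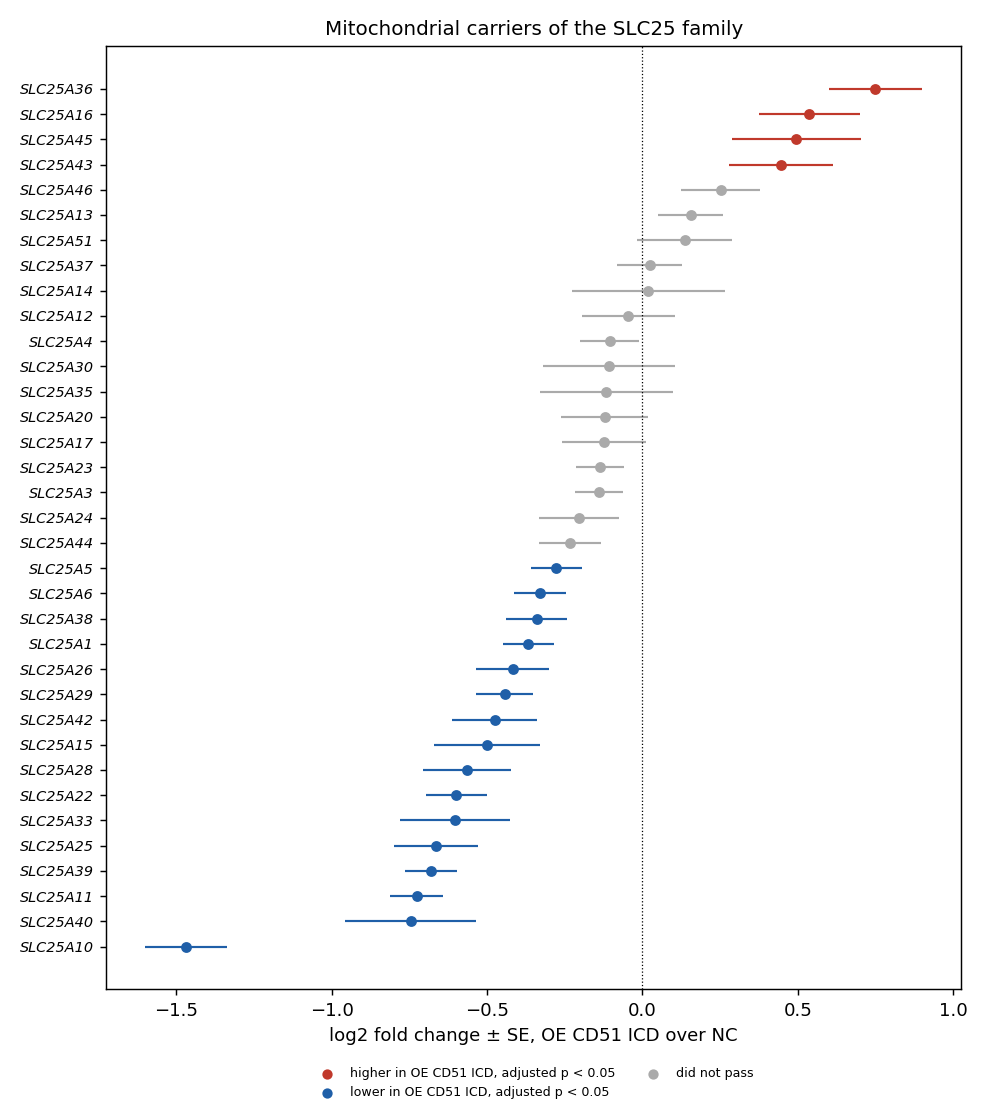
Log2 fold change of OE CD51 ICD over NC with its SE (x axis) for 35 of the 36 SLC25 mitochondrial carriers (y axis, highest at the top); red is higher, blue lower and grey not past the test. SLC25A10 lies apart at the bottom at -1.47, and SLC25A36 is at the top at 0.75.

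The last 13 symbols encode proteins with no settled substrate or no transport function. SLC9A3R1 (ENSG00000109062, chromosome 17, 74748652 to 74769353) encodes NHERF1, a PDZ adaptor that ties transporters and ezrin to the apical membrane, and had the highest FPKM of all 192 members. It had 763, 720.1 and 814 CPM in the OE CD51 ICD libraries and 1653, 1598 and 1661 CPM in the NC libraries (log2 fold change -1.10 ± 0.078 SE, adjusted p = 7.04e-13). The OE CD51 ICD libraries were all far below the lowest NC library. Its relative SLC9A3R2 (NHERF2) moved the other way, at 49.3 ± 4.74 CPM in OE CD51 ICD and 38.4 ± 0.793 CPM in NC (log2 fold change 0.36 ± 0.10 SE, adjusted p = 0.00338). SLC2A4RG, a transcription factor that binds the GLUT4 gene, was the next by FPKM and was 130.1 ± 12.1 CPM in OE CD51 ICD and 161 ± 5.98 CPM in NC (log2 fold change -0.31 ± 0.084 SE, adjusted p = 0.00303).

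SLC46A3, a lysosomal membrane protein, had 25.5, 24.3 and 23.1 CPM in the OE CD51 ICD libraries and 7.35, 7.50 and 7.16 CPM in the NC libraries (log2 fold change 1.73 ± 0.14 SE, adjusted p = 1.41e-11). SLC35F2 had 72.7, 75.9 and 71.6 CPM in the OE CD51 ICD libraries and 36.6, 42.0 and 41.6 CPM in the NC libraries (log2 fold change 0.88 ± 0.094 SE, adjusted p = 4.54e-09), and its relatives SLC35F3 and SLC35F5 were also higher, at adjusted p = 0.0308 and 0.00332. The groups did not overlap in SLC46A3 or SLC35F2. SLC35F6 was lower, at 26.1 ± 2.19 CPM in OE CD51 ICD and 33.6 ± 1.69 CPM in NC (adjusted p = 0.00658), and shares exon sequence with CENPA on the same strand, whose log2 fold change was -1.01. In all, 5 of the 13 were higher and 3 lower, where 25.2% and 25.8% of all genes tested were. The calls of SLC2A4RG and SLC35F5 were lost with the GC trend removed (adjusted p = 0.922 and 0.0755), and leaving out 1 library ended the call of SLC35F3 without NC replicate 1, NC replicate 2, OE CD51 ICD replicate 2 and OE CD51 ICD replicate 3 (adjusted p = 0.0740, 0.0855, 0.0583 and 0.120) and of SLC35F6 without OE CD51 ICD replicate 1 (adjusted p = 0.0845).

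**Figure D5:**
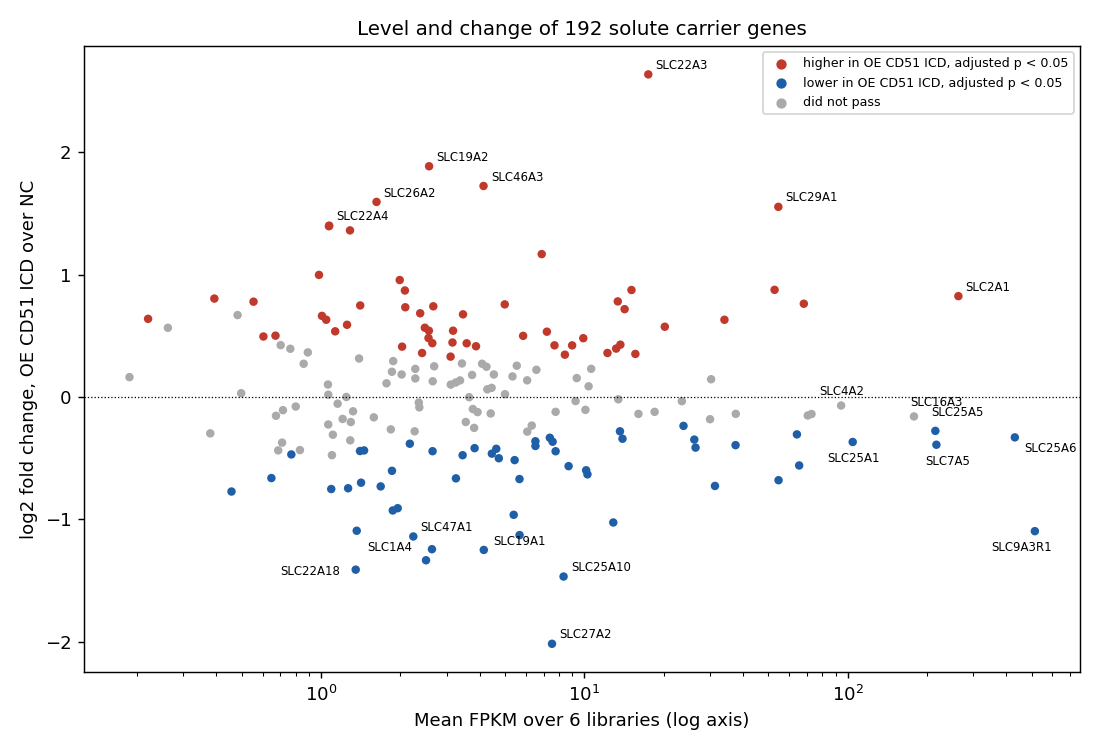
Log2 fold change of OE CD51 ICD over NC (y axis) against the mean FPKM over all 6 libraries (x axis, log scale) for 192 solute carrier genes; red is higher, blue lower and grey not past the test. Of the abundant genes at the right, SLC9A3R1 was lower in OE CD51 ICD at a mean of 515 FPKM and SLC2A1 was higher at 264 FPKM.

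Across the whole set, 99 members share exon sequence with another gene, and in 48 of them that gene had at least 10% of the member's own count. In 13 called members such a gene was itself called in the same direction. Among them, beside those named above, were SLC9A5 with FHOD1 (746% of the member's count, log2 fold change -0.63), SLC37A4 with TRAPPC4 (149%, -0.28), SLC22A23 with PSMG4 (81.8%, -0.38) and SLC24A1 with DENND4A (57.9%, 0.47). The part of these overlaps in the members' calls was not tested. On chromosome 11, where tested genes had a median log2 fold change of 0.21 against -0.00064 elsewhere, 5 of 11 members were higher and 5 lower. Without chromosome 11, 51 members were higher and 51 lower.

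Transporters with other symbols were counted in the same fit. Of 37 listed, 27 were tested, 9 were higher and 9 lower, where 25.2% and 25.8% of all genes tested were. XPR1, the phosphate exporter, was 36.1 ± 2.59 CPM in OE CD51 ICD and 21.5 ± 0.683 CPM in NC (log2 fold change 0.75 ± 0.11 SE, adjusted p = 1.51e-06), and FLVCR1, a choline and heme transporter, was 10.6 ± 1.19 CPM in OE CD51 ICD and 6.78 ± 1.06 CPM in NC (adjusted p = 0.00215). SLCO4A1, a transporter of organic anions and thyroid hormone, was 6.14 ± 1.07 CPM in OE CD51 ICD and 16.7 ± 3.35 CPM in NC (log2 fold change -1.44 ± 0.17 SE, adjusted p = 4.70e-08). The mitochondrial pyruvate carrier needs both of its subunits, and MPC1 was 4.31 ± 0.532 CPM in OE CD51 ICD and 2.81 ± 0.320 CPM in NC (adjusted p = 0.0303) while MPC2 was 24.5 ± 2.80 CPM in OE CD51 ICD and 30.01 ± 2.48 CPM in NC (adjusted p = 0.0357). These genes were named after their values were seen.

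Genes that keep the gradients or control transporters at the membrane formed the other list. Of 30 listed, 20 were tested, 10 were higher and 5 lower, where 25.2% and 25.8% of all genes tested were. SGK1, a kinase that raises the surface level of many transporters, had 61.4, 47.3 and 42.0 CPM in the OE CD51 ICD libraries and 9.08, 9.49 and 8.04 CPM in the NC libraries (log2 fold change 2.50 ± 0.14 SE, adjusted p = 1.95e-15). TXNIP and ARRDC4, arrestins that draw GLUT1 off the membrane, were both higher in OE CD51 ICD, as SLC2A1 was. TXNIP was 41.0 ± 1.42 CPM in OE CD51 ICD and 20.5 ± 7.02 CPM in NC (adjusted p = 1.30e-06), and ARRDC4 was 3.83 ± 0.402 CPM in OE CD51 ICD and 1.97 ± 0.691 CPM in NC (adjusted p = 0.00503). ATP1B1, a beta subunit of the sodium pump, was 46.8 ± 6.31 CPM in OE CD51 ICD and 112 ± 11.6 CPM in NC (log2 fold change -1.26 ± 0.10 SE, adjusted p = 8.78e-12). CA9, a carbonic anhydrase of the cell surface, was 146 ± 3.65 CPM in OE CD51 ICD and 97.6 ± 6.92 CPM in NC (adjusted p = 8.72e-07). These genes too were named after their values were seen.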

How the data were processed

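For the 6 ARPE-19 libraries the authors deposited gene counts, which are whole numbers, and FPKM, in a table each, with GRCh38 coordinates and gene lengths per the file headers. The build is hg38 per the submitters' processing notes. Which aligner and counting program were run, and whether strand was used, is not given in the sources used here. Each deposited count, divided by gene length and by a library constant of 0.961 to 1.05 times the total, returns the deposited FPKM.

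Counts were tested with edgeR 4.0.16 (R 4.3.3; filterByExpr, TMM, glmQLFit and glmQLFTest, two-sided), with Benjamini-Hochberg adjustment over 13787 genes. SE was derived from the F statistic. Values with ± are mean and SD over n = 3 libraries per group, unless marked SE. The code of the test was run on simulated counts with 200 genes changed by at least 2-fold. That simulation held no smaller changes and no GC trend, so it does not bear on calls of small change. Alternatives used limma 3.58.1, DESeq2 1.42.0, other scalings and filters, each library left out, the replicate number as a block, and loess offsets for GC content from GENCODE 29. Without chromosome 11 was added after seeing the data. Motifs were searched in RefSeq promoters on both strands, with 162 of 192 members matched.

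The members, classes and lists were chosen with earlier results of these data known, and SLC7A6OS and SLC4A1AP were moved to the class without transport function after their values were seen. The naming rule took the 8 largest rises and falls, per class up to 3 rises and 3 falls of at least 2-fold and the 2 highest by FPKM, and the 3 genes on each side of the level threshold. Other members named were chosen after their values were seen. A few genes entered the fits and counts and are not reported here by name.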

Additional observations from a re-analysis of the deposited data

How the results depend on the processing

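Of 3264 member values recomputed under 17 alternatives, 3037 kept their direction and side of the threshold, 161 lost a call, 65 gained one and 1 turned round, which was SLC38A10 with the GC trend removed (log2 0.015; the cause was not tested). Of the 112 calls, 68 held in every alternative, and 44 (23 higher, 21 lower) were lost in at least 1. The count of members higher was 56, and it was 37 with limma on log2(FPKM + 1), with 44 lower; the cause was not tested. With a pseudocount of 0.1 the counts were 40 higher and 45 lower, with DESeq2 47 and 54, with library size alone 49 and 66, and with the GC trend removed 53 and 56. Leaving out each library in turn gave 48 to 59 higher and 50 to 63 lower. Setting the level at 1 or 5 CPM gave 56 or 49 higher and 57 or 52 lower. The replicate number as a block gave 56 higher and 57 lower; deviations of same-numbered libraries correlated at -0.050, 0.0013 and 0.051, so the numbers were not taken to pair the samples. Of 396 class counts, 373 stayed within 1.5 times, among the others the 12 rises of the metal class, which became 6 without the GC trend. Members near 2 CPM rest on few counts, which limits their precision.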

Other observations

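Below the level of 2 lay 181 solute carrier genes. Of these, 70 had no count in any library, 96 had a count and were not tested, and 15 were tested. Of the 15, 1 was higher and 2 were lower, against 25.2% and 25.8% of all genes tested. SLC22A15, an organic ion transporter, was 1.21 ± 0.0898 CPM in OE CD51 ICD and 0.490 ± 0.366 CPM in NC. SLC7A7, which encodes the cationic amino acid exchanger y+LAT1, was 1.03 ± 0.187 CPM in OE CD51 ICD and 2.06 ± 0.479 CPM in NC (log2 fold change -0.99 ± 0.35 SE, adjusted p = 0.0180). SLC5A11, a sodium-coupled inositol transporter, was 0.341 ± 0.132 CPM in OE CD51 ICD and 1.35 ± 0.392 CPM in NC. SLC22A15 and SLC5A11 passed the filter on low counts only through the group in which each was higher. Their differences are descriptions without a test, although both stand among the 1 higher and 2 lower genes. Among those not tested, SLC45A2, a melanosome transporter that marks pigment cells, had 6 counts over the OE CD51 ICD libraries and 53 over the NC libraries, and SLC22A2, the organic cation transporter OCT2, had 11 counts over the OE CD51 ICD libraries and 0 over the NC libraries. SLC38A2, which encodes the widely expressed glutamine importer SNAT2, had only 19 counts over the OE CD51 ICD libraries and 9 over the NC libraries, and whether its reads were counted in full is not given in the sources used here. These genes were named after their values were seen, and no test was made of the untested ones.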
